A study of Homo sapiens with 3 samples.

Results

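WDR5 and its partner subunits in the histone H3 lysine 4 (H3K4) methyltransferase complexes called COMPASS were examined in BE(2)-C cells, a human neuroblastoma line labelled as MYCN-amplified. The members were the rows of the deposited value table whose gene symbol in the platform annotation was WDR5, RBBP5, DPY30, KMT2B, KMT2C, MEN1, HCFC1, CXXC1, PAXIP1 or KDM6A. All 10 genes were found, each with 1 probe set, among 14884 named genes. All 10 also passed a filter on low values, which kept the 7442 named genes whose mean over the arrays was at or above the median of 6.78 on the log2 scale. The groups were cells transfected with WDR5 siRNA-1, cells transfected with WDR5 siRNA-2 and cells transfected with a control siRNA, all for 40 hours, and all in the same cell line. Each group was a single Affymetrix HuGene-2_0-st array, so no value has a replicate error, no p-value was computed and each ratio compares 2 arrays rather than 2 conditions.

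COMPASS complexes place methyl groups on H3K4, a mark of active promoters and enhancers. A shared core of WDR5, RBBP5, ASH2L and DPY30 supports a catalytic subunit of the SETD1 or KMT2 family, and WDR5 is the WD-repeat scaffold that holds the catalytic subunit in the complex. Further subunits set the complexes apart: menin (MEN1) belongs to those of KMT2A and KMT2B, CXXC1 to those of SETD1A and SETD1B, and PAXIP1 and KDM6A to those of KMT2C and KMT2D. The comparison asks how the transcripts of these partners stood in cells with less WDR5 transcript.

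The targeted transcript stood apart from its partners. WDR5 had a log2 value of 7.90 with WDR5 siRNA-1 and 7.90 with WDR5 siRNA-2, against 9.46 with the control siRNA. Both siRNA arrays were low and the control array was high, a log2 ratio of -1.56 with each siRNA, or 33.9% of the control level. Among the genes kept, 0.161% had a ratio to control as low as that of WDR5 with siRNA-1, and 0.0941% with siRNA-2. The next lowest member lay 0.94 above WDR5 on the log2 ratio scale with siRNA-1 and 1.248 above it with siRNA-2. The value on the siRNA arrays lay within the range of the array's 23 background rows, 1.75 to 9.26, but above their median of 4.61. The highest background rows reach this level and no detection call was given, so the size of the fold is uncertain.

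WDR5 was the 1 member that was at least 1.5-fold lower with both siRNAs, and 0 members were at least 1.5-fold higher with both. Of all genes kept, 0.847% were at least 1.5-fold lower and 0.618% at least 1.5-fold higher with both. With siRNA-1 alone, 2 members (WDR5 and MEN1) were lower by that limit and 0 higher, against 4.6% and 2.24% of all genes kept. With siRNA-2 alone, WDR5 was lower by that limit and 0 members were higher, against 4% and 2.19% of all genes kept. At any size, 5 of the 10 members were lower than control with both siRNAs (WDR5, MEN1, HCFC1, CXXC1 and PAXIP1), beside 22.3% of all genes kept. By the same count 1 member (KDM6A) was higher with both, beside 18% of all genes kept. Both ratios share the single control array, so agreement between them is not independent.

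**Figure D1:**
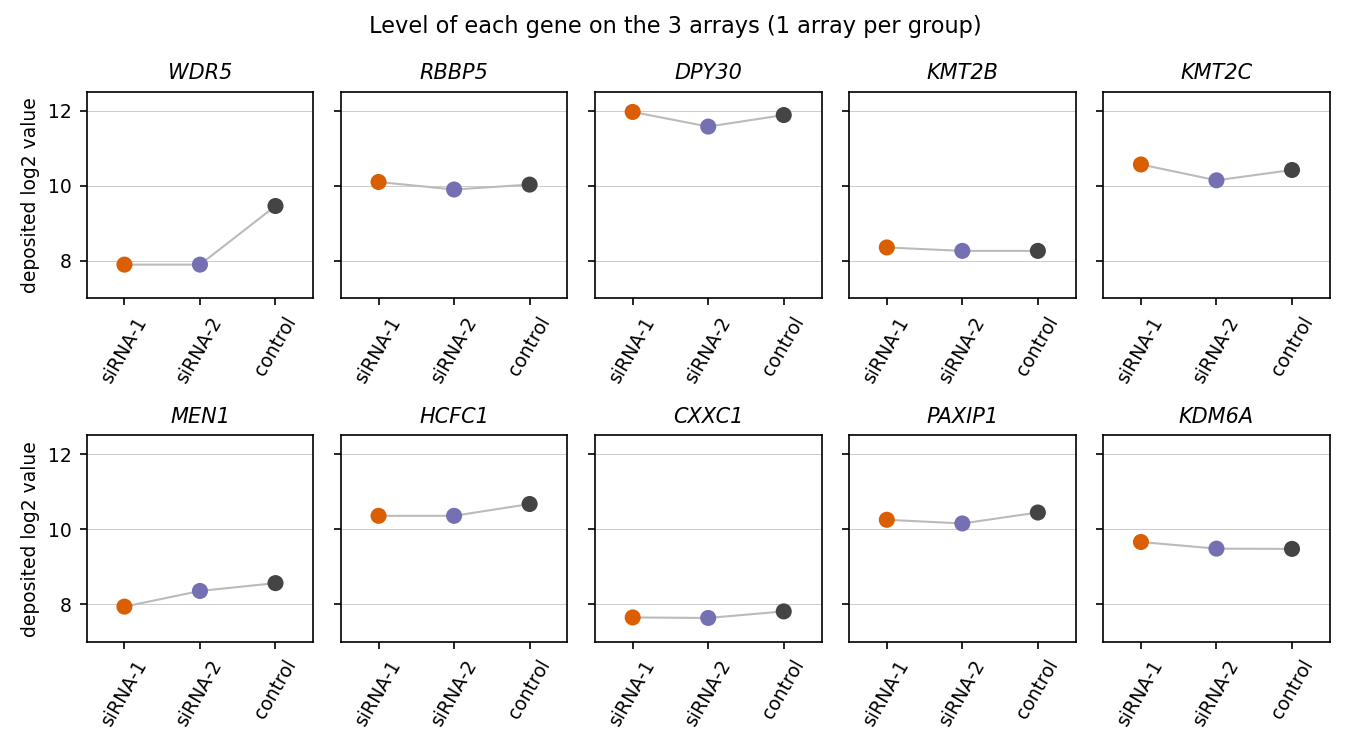
Deposited log2 value (vertical axis) of each of the 10 genes on the WDR5 siRNA-1, WDR5 siRNA-2 and control siRNA arrays (horizontal axis); each point is 1 array and there are no error bars. WDR5 stood at 7.90 on both siRNA arrays and at 9.46 on the control array, and none of the other genes shown had arrays so far apart.

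The other core subunits measured were within 1.5-fold of the control. RBBP5, the WD-repeat subunit that binds WDR5 and contacts the nucleosome, had log2 values of 10.1 (siRNA-1) and 9.90 (siRNA-2), against 10.03 with the control siRNA. Its log2 ratios were 0.07 and -0.13, on opposite sides of the control array. DPY30, a small subunit that joins the complex through ASH2L, had log2 values of 11.97 (siRNA-1) and 11.58 (siRNA-2), against 11.89 with the control siRNA. The siRNA-2 array was the low one, with a log2 ratio of -0.31 (1.24-fold lower), while the siRNA-1 array was 0.08 above the control. Ratios at least as far from 0 as those of DPY30 were found in 19.1% of all genes kept with siRNA-2 and in 55.5% with siRNA-1. ASH2L, the fourth core subunit, was not analysed here.

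Both catalytic subunits among the members were within 1.5-fold of the control too. KMT2B, a methyltransferase that acts at promoters with menin, had log2 values of 8.36 (siRNA-1) and 8.27 (siRNA-2), against 8.27 with the control siRNA. The siRNA-2 and control values were identical, and the log2 ratio was 0.09 with siRNA-1. KMT2C, which places H3K4 monomethylation at enhancers, had log2 values of 10.57 (siRNA-1) and 10.15 (siRNA-2), against 10.42 with the control siRNA. The siRNA-1 array was the highest and the siRNA-2 array the lowest of the 3, with log2 ratios to control of 0.15 and -0.28.

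MEN1, HCFC1 and CXXC1 were each lower than control on both siRNA arrays. MEN1 encodes menin, a tumour suppressor that tethers KMT2A and KMT2B to chromatin. Its log2 values were 7.94 with siRNA-1 and 8.36 with siRNA-2, against 8.57 with the control siRNA. Both siRNA arrays were below the control, but unequally: the siRNA-1 array was 1.54-fold and the siRNA-2 array 1.16-fold lower. Like WDR5, KMT2B and CXXC1, MEN1 had levels that background rows also reach, which leaves the sizes of its folds uncertain. With siRNA-1, 4.06% of all genes kept had a ratio as low as that of MEN1, and with siRNA-2 18.2% did. HCFC1, host cell factor, is a chromatin adaptor found in COMPASS and in the NSL acetyltransferase complex. It had log2 values of 10.36 (siRNA-1) and 10.36 (siRNA-2), against 10.67 with the control siRNA. The siRNA arrays held the same value, 1.24-fold below the control. CXXC1 encodes a protein that binds unmethylated CpG and brings SETD1 to CpG islands. Its log2 values of 7.65 (siRNA-1) and 7.64 (siRNA-2), against 7.81 with the control siRNA, gave ratios of -0.16 and -0.17.

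The subunits of the KMT2C and KMT2D complexes went different ways. PAXIP1, a BRCT-domain protein also known from the DNA damage response, had log2 values of 10.25 (siRNA-1) and 10.16 (siRNA-2), against 10.45 with the control siRNA. Both siRNA arrays were lower, by 1.14-fold and 1.22-fold. KDM6A (UTX), the subunit that removes methyl groups from H3K27, had log2 values of 9.66 (siRNA-1) and 9.49 (siRNA-2), against 9.48 with the control siRNA. Only its siRNA-1 array differed visibly from the control, by a log2 ratio of 0.18, against 0.01 with siRNA-2.

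Over the 10 members the median log2 ratio was -0.05 with siRNA-1 and -0.24 with siRNA-2. Without WDR5 the medians were 0.07 and -0.21 over 9 genes, so the sign with siRNA-1 turned on that 1 gene. The median over all genes kept was 0 with each siRNA. The ratios of the members other than WDR5 ran between -0.63 and 0.18 with siRNA-1 and between -0.31 and 0.01 with siRNA-2. For scale, the 5th and 95th percentiles of all genes kept were -0.56 and 0.42 with siRNA-1, and -0.52 and 0.38 with siRNA-2. The members outside those ranges were WDR5 with both siRNAs and MEN1 with siRNA-1. The 25th percentile of all genes kept was -0.117 with siRNA-1 and -0.128 with siRNA-2. WDR5, MEN1, HCFC1, CXXC1 and PAXIP1 lay below it with both siRNAs. RBBP5 (just below, at -0.131), DPY30 and KMT2C lay below it with siRNA-2 only, and KMT2B and KDM6A lay above it with both. These positions rest on 1 array per group and were not tested.

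**Figure D2:**
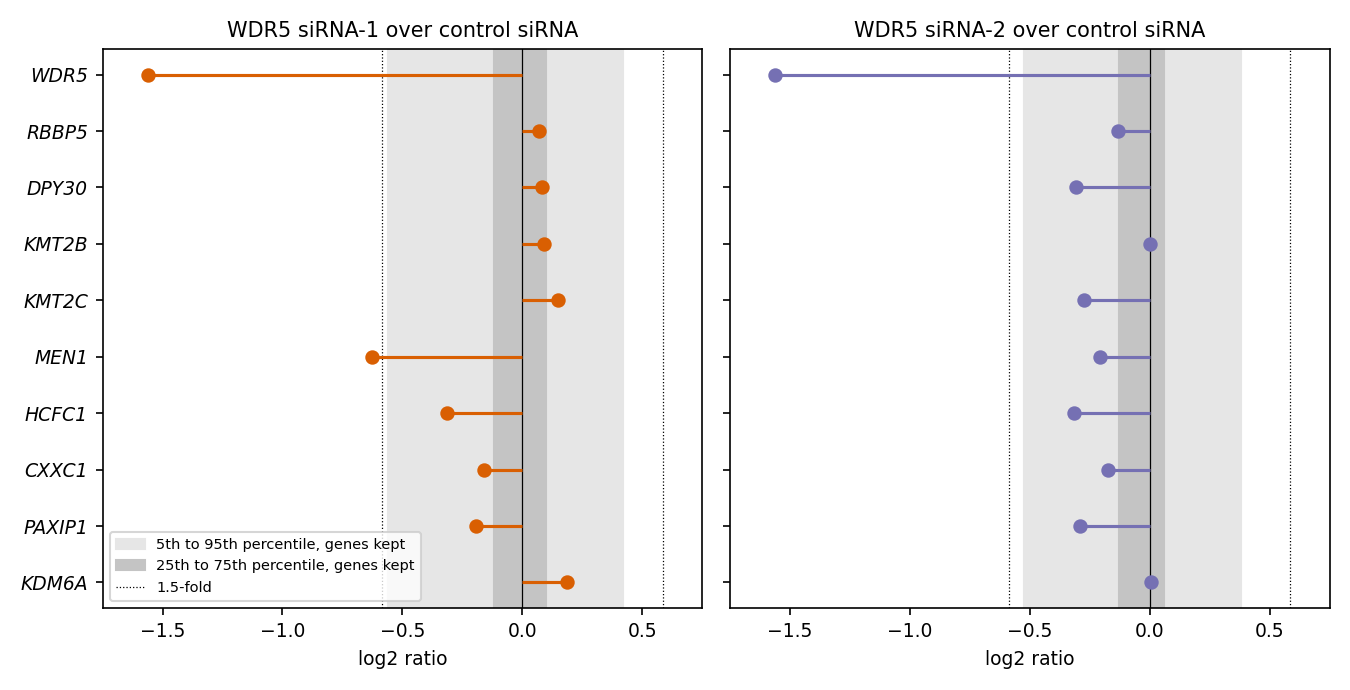
Log2 ratio to the control siRNA (horizontal axis) of each of the 10 genes with WDR5 siRNA-1 (left) and WDR5 siRNA-2 (right); grey bands give the 5th to 95th and the 25th to 75th percentile of all 7442 genes kept, and dotted lines mark 1.5-fold. WDR5 lies at -1.56 on both sides, MEN1 at -0.63 with siRNA-1 lies just outside the wider band, and the other points lie inside it.

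The siRNAs were then compared with each other. No member was at least 1.5-fold apart between the siRNA arrays, beside 4.21% of all genes kept that were higher by that limit on the siRNA-1 array and 4.65% that were lower on it. The widest gaps belonged to KMT2C, DPY30 and MEN1. On the siRNA-1 array KMT2C was 1.34-fold and DPY30 1.31-fold above the siRNA-2 array, whereas MEN1 had a log2 ratio of siRNA-1 over siRNA-2 of -0.42. Ratios of at least the size seen for MEN1 were found in 16.5% of all genes kept. By any amount, 7 of the 10 members were higher on the siRNA-1 than on the siRNA-2 array, beside 43.1% of all genes kept. RBBP5, DPY30 and KMT2C lay on opposite sides of control with the siRNAs, 3 of 10 members beside 25.2% of all genes kept. WDR5 and HCFC1 had the same value on both siRNA arrays, as did 21.5% of all genes kept, so such a tie is common in this table.

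The hybridization controls of the arrays, which are bacterial and phage transcripts, also differed between the arrays. All 9 of these rows were higher on the siRNA-1 than on the control array, with a median log2 ratio of 0.16 and a range of 0.08 to 0.30. On the siRNA-2 array 2 of the 9 were higher than on the control array, with a median of -0.02. All 9 were also higher on the siRNA-1 than on the siRNA-2 array, where their median log2 ratio of siRNA-1 over siRNA-2 was 0.16, with a range of 0.08 to 0.37. With siRNA-1 the ratios of RBBP5, DPY30, KMT2B, KMT2C and KDM6A were positive, from 0.07 to 0.18. Those of WDR5, MEN1, HCFC1, CXXC1 and PAXIP1 were negative, and the median over all genes kept was 0. The part of the hybridization controls in the members' ratios was not tested.

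**Figure D3:**
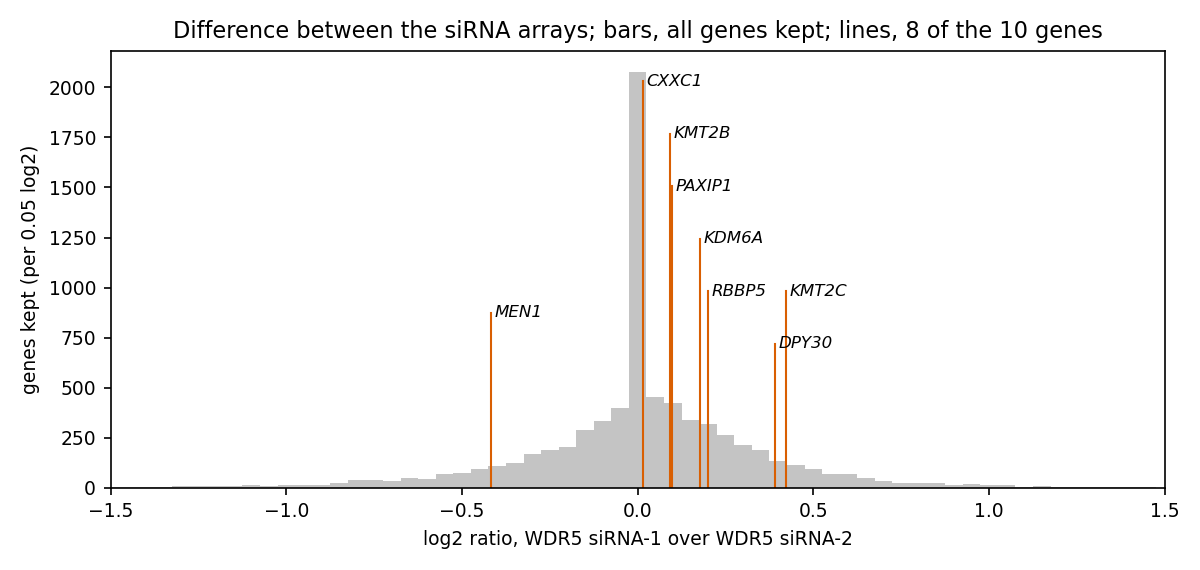
Distribution of the log2 ratio of WDR5 siRNA-1 over WDR5 siRNA-2 (horizontal axis) over the 7442 genes kept (bars, number of genes per bin on the vertical axis), with vertical lines at the 8 members whose arrays were not tied; the height of a line only places its label. KMT2C (0.42), DPY30 (0.39) and MEN1 (-0.42) lie farthest from 0, and all 8 lie well within the distribution.

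Other subunits of the same complexes were also within 1.5-fold of control. Of 10 further COMPASS subunits listed, 7 were measured and kept, and 0 of them were at least 1.5-fold from control with either siRNA. Among all genes kept, 4.6% were lower and 2.24% higher by that limit with siRNA-1. With siRNA-2 these shares were 4% and 2.19%, so 0 in a list this short says little. Their median log2 ratio was 0 with each siRNA. SETD1A, a catalytic subunit, and WDR82, its partner in recruitment to RNA polymerase II, held 1 identical value on all 3 arrays (8.50 for SETD1A and 9.996 for WDR82). Such ties were common, in 1107 of the 7442 genes kept. A ratio of exactly 0 with at least 1 siRNA was found in 4 of the 7 subunits, beside 2569 of all genes kept. KMT2D, the paralogue of KMT2C, had log2 values of 8.19 (siRNA-1) and 8.28 (siRNA-2), against 8.28 with the control siRNA. HCFC2, a relative of HCFC1, was on the other side of control from HCFC1, being 1.16-fold (siRNA-1) and 1.24-fold (siRNA-2) higher. PAGR1, the partner of PAXIP1, shared its side: its log2 ratios were -0.13 and -0.31. NCOA6, a nuclear receptor coactivator of the KMT2C and KMT2D complexes, had ratios of 0.27 and 0, and PSIP1, the chromatin tether of menin, was at -0.02 with each.

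WDR5 also serves in the NSL and ATAC acetyltransferase complexes and binds the remodeller CHD8. Of 18 such partners listed, 16 were measured and kept, and 0 were at least 1.5-fold from control with both siRNAs. Only 0.847% of all genes kept were lower and 0.618% higher by that limit with both. With siRNA-1, 1 of the 16 (TADA3) was lower by that limit and 0 higher, beside 4.6% and 2.24% of all genes kept. With siRNA-2, 1 of the 16 (KAT14) was lower and 0 higher, beside 4% and 2.19%. The medians of the 16 were -0.004 with siRNA-1 and -0.03 with siRNA-2. By any amount, 6 of the 16 were lower with both and 1 higher, beside 22.3% and 18% of all genes kept. Both ratios share the single control array, and the difference from these shares was not tested. The 1 higher was YEATS2, the histone-reading subunit of ATAC, with log2 ratios of 0.14 and 0.26. TADA3, an adaptor of the ATAC and SAGA acetyltransferases, had the largest shared ratio, with log2 values of 7.28 (siRNA-1) and 7.59 (siRNA-2), against 7.95 with the control siRNA. The siRNA-1 array was 1.59-fold and the siRNA-2 array 1.29-fold below the control. KAT8, the catalytic subunit of NSL, was 1.16-fold lower with each, and TADA2A had ratios of -0.15 and -0.26. KAT14, an ATAC subunit, was 1.90-fold lower with siRNA-2 but only 1.07-fold lower with siRNA-1, which is the widest gap between the siRNAs on this list. TADA3, KAT8, TADA2A and KAT14 had levels that background rows also reach, so the sizes of their folds are uncertain.

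WDR5B, an intronless paralogue of WDR5 with a closely similar protein, was not low with both siRNAs. Its log2 values were 8.13 with siRNA-1 and 7.48 with siRNA-2, against 7.80 with the control siRNA. The control array lay midway, with log2 ratios of 0.32 and -0.33. Background rows also reach these levels, so the sizes of the WDR5B ratios are uncertain. The probe sequences were not used here, so cross-reading between WDR5 and WDR5B was not tested. Of the 5 genes kept on the list of WDR5B and WD-repeat scaffolds of other chromatin complexes, 0 were at least 1.5-fold from control. Beside this, 4.6% of all genes kept were lower and 2.24% higher with siRNA-1, and 4% and 2.19% with siRNA-2. Between the siRNA arrays, 2 of the 5 (WDR5B and RBBP4) were at least 1.5-fold higher with siRNA-1 and 1 (HIRA) was lower. The shares of all genes kept were 4.21% and 4.65%, and the difference was not tested. RBBP7, a histone-binding scaffold of PRC2 and NuRD, had log2 ratios of -0.24 and -0.09, and WDR77 (the partner of the arginine methyltransferase PRMT5) had 0.02 and 0.04. Closest to the limit were RBBP4, the paralogue of RBBP7, with ratios of 0.09 and -0.56, and HIRA, a histone chaperone, with -0.56 and 0.05; this pair was picked with the values in view.

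The enzymes and readers kept that work on the same mark were also within 1.5-fold of control. All 5 H3K4 demethylases listed were kept and 0 were at least 1.5-fold from control with either siRNA. KDM1A (LSD1) had log2 values of 11.2 (siRNA-1) and 10.79 (siRNA-2), against 11.00 with the control siRNA, so the control again lay midway. KDM5B and KDM5C, demethylases of the JARID1 family, had shared ratios below control, of -0.17 and -0.06 for KDM5B and -0.09 and -0.09 for KDM5C, and KDM1B was at 0.01 and 0.16. Of 11 listed H3K4 readers, 5 were kept and 0 reached 1.5-fold with either siRNA. For both lists, the shares of all genes kept were 4.6% lower and 2.24% higher with siRNA-1, and 4% and 2.19% with siRNA-2. A count of 0 of 5 therefore says little. PHF2, a PHD-finger demethylase that reads trimethylated H3K4, was 1.31-fold lower with each siRNA, and its values of 9.50 and 9.50, against 9.89 with the control siRNA, were low on both siRNA arrays. BPTF, the reader of the NURF remodeller, was at -0.15 and -0.03, and CHD1 at 0.05 and 0.22. SPIN1, a spindlin reader, was 1.35-fold above control on the siRNA-1 array and 1.15-fold below it on the siRNA-2 array. Of the H3K4 methyltransferases outside COMPASS, 2 of 3 were kept, and SETD7 had ratios of 0.22 and 0.

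The H3K27 side of the balance, on which KDM6A acts, gave 4 kept genes of 5 listed. Of these, 1 (SUZ12) was at least 1.5-fold lower with siRNA-1 and 0 with siRNA-2, beside 4.6% and 4% of all genes kept. By the same limit 0 were higher with either, beside 2.24% and 2.19%. SUZ12, a core subunit of the H3K27 methyltransferase PRC2, had log2 values of 10.57 (siRNA-1) and 11.38 (siRNA-2), against 11.46 with the control siRNA. The siRNA-1 array was 1.86-fold and the siRNA-2 array 1.06-fold below the control. EZH2, the catalytic subunit, leaned the other way between the siRNAs, at -0.08 with siRNA-1 and -0.43 with siRNA-2. EZH1 had a ratio of -0.11 with each, and KDM6B, the paralogous demethylase of KDM6A, had 0.18 and 0.03.

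**Figure D4:**
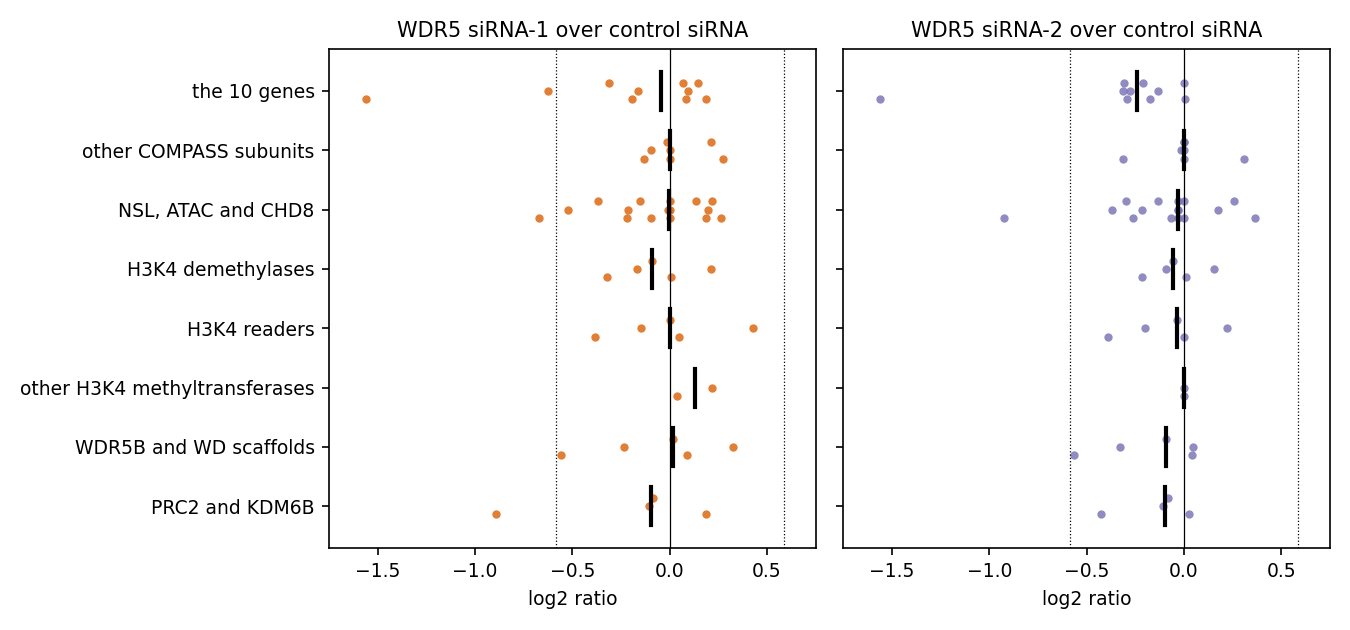
Log2 ratio to the control siRNA (horizontal axis) of the kept genes of 8 lists (rows) with WDR5 siRNA-1 (left) and WDR5 siRNA-2 (right); each point is 1 gene, the black bar is the median of the list and dotted lines mark 1.5-fold. WDR5 is the far left point of the top row on both sides, and the lists' medians lie between -0.24 and 0.13.

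The genes whose pair of ratios lay closest to that of WDR5 were found by the distance between the pairs over the 2 siRNA ratios. Small RNA genes, olfactory receptors, antisense transcripts and genes with open reading frame, LINC, LOC, -IT or -DT names were left out of this ranking. The closest of the genes ranked were CERK (distance 0.43), SEPTIN14 (0.47), EMP2 (0.496), IGFBP5 (0.59) and RTKN2 (0.65). CERK, which encodes ceramide kinase, had log2 values of 9.59 (siRNA-1) and 9.64 (siRNA-2), against 10.87 with the control siRNA. None of these 5 is a COMPASS subunit, and the nearest was 0.43 away on a log2 scale. The likeness rests on 3 arrays.

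The series title links WDR5 to targets of N-Myc, a factor that binds the E-box CACGTG with its partner MAX, so that motif was looked up in the promoters of the members. The RefSeq promoter table of build GRCh38.p14 gives windows of 300 bases, from 250 before to 50 after a transcription start, and holds 11 windows for 7 of the members, 4 of them for WDR5. CACGTG reads the same on both strands. It occurred in 7.26% of all 35116 windows and in a window of 8.77% of all genes, and among the members in 1 window each of WDR5 and KDM6A. The 30 bases around each match are shown in lower case with the motif in capitals, from the plus strand at chr9:134136273-134136302 (136 bases before 1 of the starts of WDR5) and at chrX:44873081-44873110 (95 bases before the start of KDM6A).
WDR5: acccggccgccgCACGTGttccccgccggg
KDM6A: gtcaacaaaggtCACGTGaggcgtgcgggc
The windows of RBBP5, MEN1, KMT2B, KMT2C and CXXC1 held no match. These letters describe the windows and do not show binding.

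The cell line was checked by its markers. Of 13 neuroblastoma markers, 11 were measured and kept, among them the adrenergic transcription factor genes HAND2, GATA3 and PHOX2A and the enzyme genes DBH and DDC. Of these 11, 2 were at least 1.5-fold lower on the siRNA-1 than on the siRNA-2 array, beside 4.65% of all genes kept. DBH, which makes noradrenaline, had log2 values of 9.58 (siRNA-1) and 10.90 (siRNA-2), against 10.39 with the control siRNA, and CHGA, a secretory granule protein, had 10.40 (siRNA-1) and 11.60 (siRNA-2), against 10.87. HAND2 and GATA3 went the other way, with log2 ratios of siRNA-1 over siRNA-2 of 0.33 and 0.30. In all, 6 of the 11 were lower on the siRNA-1 than on the siRNA-2 array, 2 higher and 3 tied. DBH and CHGA thus differed between the siRNA arrays, and the part of such differences in the members' ratios was not tested. Of 10 Schwann and stromal markers, 4 were measured and 2 kept (S100B and SOX10, each with 1 identical value on all arrays). Of 10 leukocyte and endothelial markers, 6 were measured and 1 kept (CD68, with log2 ratios of 0.38 and 0.08).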

How the data were processed

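RNA of BE(2)-C cells was profiled on 3 Affymetrix arrays, 1 per group. The deposited table holds 53617 probe-set values per array, with no scale stated. They ran between 1.34 and 14.9 and were taken to be log2 values, on which all folds here depend. Per the submitters' processing notes, MAS5 was used, with no step named; background correction, normalization and summarisation are not given in the sources used here. Array medians were 5.79 (siRNA-1), 5.79 (siRNA-2) and 5.81 (control), and no further scaling was applied. The same value stood on all 3 arrays in 37.1% of rows.

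The platform annotation named 16098 rows, and 37519 had no name here. Symbols were updated through RefSeq (GRCh38.p14) by Entrez identifier, which matched all 16098. Of a gene's probe sets the one with the highest mean was used. Log2 ratios were differences of the deposited values, and a gene was counted at 1.5-fold. Background rows reached up to 9.26, so the fold of any named gene with levels below that is uncertain. Depth does not apply to arrays; their number limits precision. The genes named are the 10 members, WDR5B, up to 4 genes of each related list by the smaller of the ratios to control plus the widest gap between the siRNAs, and the 5 genes nearest WDR5; SETD1A, WDR82, KMT2D and the markers were named after their values were seen. The members and lists were chosen with earlier results of these data known. Alternatives were other scalings, filters, probe-set rules and a lower limit of 0.32 on the log2 ratio. The calculation was run on simulated data with planted changes and little noise, which checks the code and not the counts in these arrays. Python 3.11.15 with numpy 2.4.6 and pandas 2.3.3 was used.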

Additional observations from a re-analysis of the deposited data

Results flagged for a closer look

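Of the 68 genes kept on any of the lists, 18 (26.5%) had ratios to control of opposite sign with the siRNAs, beside 25.2% of all genes kept. The difference was not tested, since each group had 1 array. The siRNA-1 array was the higher one in 10 of the 18 and the lower one in 8. Among the members the log2 ratio of WDR5 siRNA-1 over WDR5 siRNA-2 was 0.20 for RBBP5, 0.39 for DPY30 and 0.42 for KMT2C. Among the other partners of WDR5 it was 0.26 for KANSL1, 0.29 for SGF29, 0.22 for MBIP and -0.59 for KAT2B. Among the demethylases and readers it was 0.43 for KDM1A, -0.33 for KDM5A and 0.63 for SPIN1. Among the WD-repeat genes it was 0.65 for WDR5B, 0.65 for RBBP4 and -0.61 for HIRA. The 5 neuroblastoma markers with opposite signs were all lower with siRNA-1: -0.22 for PHOX2A, -0.22 for HAND1, -1.32 for DBH, -1.20 for CHGA and -0.37 for CHGB. Over all 11 of these markers kept, 6 were lower on the siRNA-1 than on the siRNA-2 array, 2 higher and 3 tied. The 2 higher ones were HAND2 (0.33) and GATA3 (0.30).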

How the results depend on the processing

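The ratios of WDR5 and of its partners moved little with the scaling: shifting the arrays to a common median or quantile normalization moved no member's ratio to control by more than 0.08, and the sign differed for KMT2B with siRNA-2 (0 as deposited, 0.01 and 0.07). A stricter filter at the 75th percentile of mean level (8.54) left out WDR5, MEN1, KMT2B and CXXC1 and kept 6 members. By that construction, 0 members were then at least 1.5-fold lower with both siRNAs, 0 with siRNA-1 and 0 with siRNA-2. All genes lower with both numbered 30, against 63 at the main filter. The stricter filter keeps fewer genes, so these 30 and 63 are not shares of the same total. Of the 5 genes nearest WDR5, 2 were shared with those reported. With a lower fold limit, a log2 ratio of 0.32 in place of 0.58, 3 members were that far apart between the siRNA arrays (KMT2C 0.42, DPY30 0.39 and MEN1 -0.42), beside 24.03% of all genes kept, and 281 of all genes were lower with both (3.78%), while WDR5 was still the 1 member lower with both. Other alternative values stayed within 0.13, the median absolute log2 difference between the siRNA arrays, or, for counts, within 1.5 times; they were 300 of 310. Leaving WDR5 out of the medians, an alternative added after the data were seen, is given above. No paired analysis was possible because each group had 1 array.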
